A study of Mus musculus with 15 samples.

Results

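The 39 genes described here belong to the type I interferon response. They were chosen by name, as interferon-induced effectors, sensors and signalling factors, from the 49492 genes of the count table, and all 39 were found and passed the filter on low counts. RNA sequencing measured them in 15 libraries of OT-II CD4+ T cells, which carry a transgenic T cell receptor for an ovalbumin peptide and the congenic marker CD45.1. Naive cells (CD44 low, CD62L+, 3 libraries) were sorted from superficial lymph nodes and spleen of untreated CD45.1×OT-II mice. Primed cells came from naive donor cells of this kind after transfer into CD45.2+ C57BL/6 (WT) or Batf3-/- mice. Those recipients received ovalbumin and papain, a protease allergen, through the nose, and CD44 high donor cells were taken from mediastinal nodes 5 days later as CD62L- or CD62L+ cells. For each primed group the labels give 3 immunization doses, 60 µg of ovalbumin, 30 µg of papain and an interval of 24 hours after transfer. Each combination of recipient and subset has 3 libraries. The Batf3 deletion is in the host and not, by the labels, in the cells sequenced, so the reads cannot check it. Naive and primed cells also differ in transfer, host and organ, and the labels give neither ages nor how many animals a library holds.

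Type I interferons bind the IFNAR receptor, whose kinases JAK1 and TYK2 act on signal transducers that include STAT2. STAT2 and IRF9 are parts of the complex ISGF3, which binds the interferon-stimulated response element (ISRE) and switches on antiviral genes. Naive T cells are known to keep a low tonic response to interferon made at rest, and BATF3 is known as a transcription factor needed by cross-presenting (type 1) conventional dendritic cells.

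The promoters below are shown because they carry, or lack, an exact match to the core of the sequence through which this pathway acts. They are the 200 bases before the RefSeq start of 7 members (RefSeq, GRCm38.p6), written 5′ to 3′ on the gene's strand, with capitals marking the ISRE core GAAANNGAAA on either strand. Isg15, Oas1a, Oas1g, Ifit3b and Oasl2 were called between recipients. Ifit1 and Ifit3 were not, and are shown as close relatives of Ifit3b. Oasl1 and Ifi44 were also called between recipients and had no match in their windows, which are not shown. Usp18 was called too, but no promoter was matched for it. The choice shown therefore does not give the share of called genes with a match.
Isg15: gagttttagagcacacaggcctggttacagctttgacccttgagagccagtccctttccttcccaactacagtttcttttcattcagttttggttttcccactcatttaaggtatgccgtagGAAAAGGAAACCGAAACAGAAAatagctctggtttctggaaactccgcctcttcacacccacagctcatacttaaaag
Oas1a: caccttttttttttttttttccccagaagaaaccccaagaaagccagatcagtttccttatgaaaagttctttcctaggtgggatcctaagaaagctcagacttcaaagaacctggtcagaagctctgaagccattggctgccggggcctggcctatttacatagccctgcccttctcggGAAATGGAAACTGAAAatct
Oas1g: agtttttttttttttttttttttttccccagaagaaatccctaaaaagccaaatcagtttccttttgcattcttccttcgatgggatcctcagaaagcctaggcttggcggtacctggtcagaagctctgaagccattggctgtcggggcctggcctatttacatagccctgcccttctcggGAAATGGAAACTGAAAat
Ifit1: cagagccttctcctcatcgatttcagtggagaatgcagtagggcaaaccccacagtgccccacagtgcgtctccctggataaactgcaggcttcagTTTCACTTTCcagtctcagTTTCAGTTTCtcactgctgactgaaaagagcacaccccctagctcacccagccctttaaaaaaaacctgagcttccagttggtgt
Ifit3: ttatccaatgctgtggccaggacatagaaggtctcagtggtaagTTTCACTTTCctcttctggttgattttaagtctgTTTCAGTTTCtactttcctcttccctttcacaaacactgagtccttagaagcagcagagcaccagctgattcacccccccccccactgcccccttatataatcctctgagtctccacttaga
Ifit3b: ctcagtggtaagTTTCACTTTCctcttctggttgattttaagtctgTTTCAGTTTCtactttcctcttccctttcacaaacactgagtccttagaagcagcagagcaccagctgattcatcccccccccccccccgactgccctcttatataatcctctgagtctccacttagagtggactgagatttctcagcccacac
Oasl2: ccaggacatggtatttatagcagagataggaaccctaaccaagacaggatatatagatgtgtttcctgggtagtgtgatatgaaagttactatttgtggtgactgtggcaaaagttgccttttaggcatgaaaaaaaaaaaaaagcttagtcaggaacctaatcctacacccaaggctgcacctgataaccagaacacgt
The windows are chr4:156200819-156201018 for Isg15, chr5:120907526-120907725 for Oas1a, chr5:120887614-120887813 for Oas1g, chr19:34640689-34640888 for Ifit1, chr19:34583329-34583528 for Ifit3, chr19:34607757-34607956 for Ifit3b and chr5:114896734-114896933 for Oasl2. Isg15, Oas1a and Oas1g lie on the minus strand and the other 4 on the plus strand. Isg15 held 3 overlapping matches in a run of 22 bases, the nearest beginning 66 bases before the start. Oas1a and Oas1g shared the same run of 16 bases, with the nearest match beginning 14 and 12 bases before the start. Ifit1, Ifit3 and Ifit3b carried the same pair of separate matches, with the nearest beginning 85, 122 and 154 bases before the start. Oasl2 had no match in its window, where a variant of the core would not have been counted.

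RefSeq promoters of 300 bases (250 before and 50 after the start) were available for 29 of the 39 genes. The ISRE core GAAANNGAAA, searched on both strands, occurred in 16 of the 29 (55.2%) against 3.99% of 27025 genes with a promoter. The gamma-activated site TTCNNNGAA, a motif of the gamma interferon response, occurred in 7 of the 29 (24.1%) against 9.55%. In 2 promoters the matches to these motifs overlapped. The other 10 genes, for which no promoter was matched, are Oas2, Usp18, Dhx58, Mx1, Mx2, Rtp4, Parp9, Parp14, Zbp1 and Ifi27l2a.

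Libraries held 38082967 to 99380475 counts, and the 39 genes took 0.39% to 0.41% of the counts of naive libraries and 0.19% to 0.28% of those of primed libraries. Levels are given in CPM, read counts brought to a common library size with TMM factors, and tests are edgeR quasi-likelihood tests over 19942 genes with Benjamini-Hochberg adjustment, called at 0.05. The spread of log2 values between libraries of a group had a median SD of 0.241 for the 39 genes and 0.397 for all genes tested. The 5 libraries numbered 1 had ribosomal RNA shares of 3.86% to 5.26%, and the others 8.36% to 16.7%. Library 3 of WT CD62L- cells had the fewest counts and library 3 of Batf3-/- CD62L- cells the highest ribosomal RNA share. These are the libraries said below to have stood apart. On the second axis of a principal component analysis, the WT library lay at -138, against -27.5 and -49.9 in its group. The Batf3-/- library lay at -9.21, against 13 and 7.01 in its group, so that axis set apart the WT library only. T cell genes (Cd3e, Cd3d, Cd3g, Cd4 and Lck) summed to 4320 ± 110 CPM in naive cells (SD, n = 3) and to means of 5920 to 6590 CPM in the primed groups. The sort marker Cd44 followed the labels, with means of 24.2 CPM in naive and 153 to 256 CPM in primed groups. Replicates are labelled independent but are not assigned to animals, and the p-values therefore reflect differences between libraries only. In bulk RNA, fewer cells of a type and less RNA per cell cannot be told apart.

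Most of the 39 genes fell from naive to primed cells. Their summed level was 3810 ± 64 CPM in naive libraries (SD, n = 3) and 2140 ± 120 in WT CD62L-, 2110 ± 39 in WT CD62L+, 2650 ± 62 in Batf3-/- CD62L- and 2450 ± 120 in Batf3-/- CD62L+ libraries. All 12 primed libraries lay below the 3 naive libraries in this sum. In WT CD62L- cells 29 genes fell and 4 rose, where 13.2% of all genes tested fell and 16.9% rose. In WT CD62L+ cells 28 fell and 1 rose, against 11.4% and 15.8% of all genes. In Batf3-/- CD62L- cells 25 fell and 6 rose, against 12.8% and 16.5%. In Batf3-/- CD62L+ cells 26 fell and 6 rose, against 13.3% and 16.9%. The share of the 39 that fell was thus 64.1% or more in each comparison. Median log2 fold changes were -0.84, -1.21, -0.97 and -1.13 in this order of groups, and -0.08, -0.01, 0 and 0 over all genes. These 4 comparisons share the naive libraries. The genes called lower in all 4 numbered 25 (64.1% of the list, 7.36% of all genes), and 26 genes had every primed library below every naive one (66.7%, against 13.0% of all genes), while 1 had every primed library above (13.3% of all genes). Erythroid markers, mainly globins, also stood lower in primed cells, with group sums of 74.8 ± 27, 62.7 ± 4.2, 33 ± 21 and 21.3 ± 14 CPM (SD, n = 3) in the order above against 630 ± 53 in naive cells. B cell markers stood at 158 to 207 CPM in naive libraries, above WT CD62L- libraries (75.3 to 85.8) and below both CD62L+ groups. The naive range overlapped that of Batf3-/- CD62L- libraries (122 to 183 CPM). The part of the erythroid and B cell markers in these falls was not tested.

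**Figure D1:**
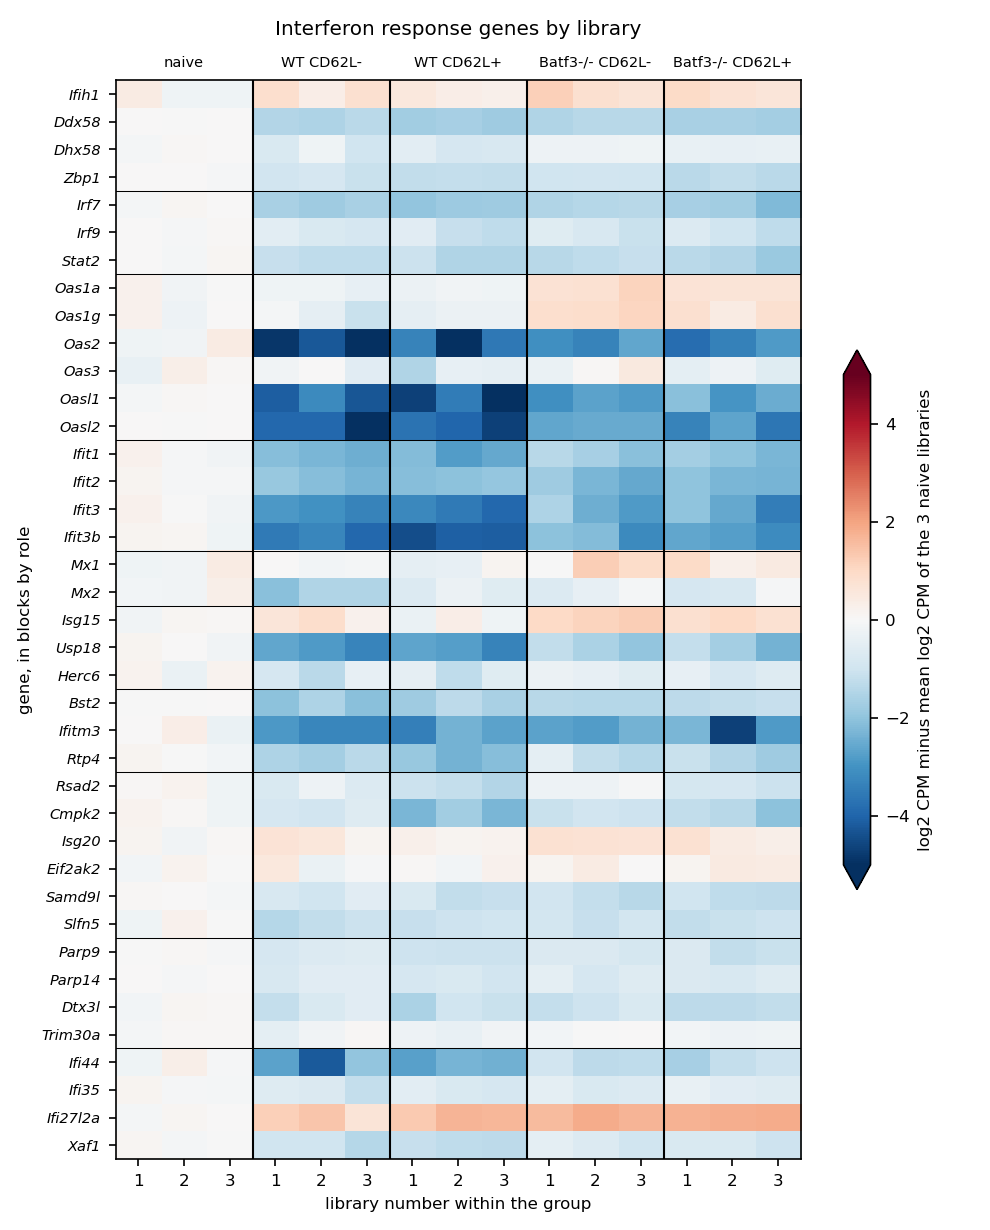
Each row is 1 of the 39 genes, in blocks by role, and each column 1 of the 15 libraries. Colour gives log2 CPM minus the mean log2 CPM of the 3 naive libraries, cut at 5 in either direction. Blue fills most of the 12 primed columns, Ifi27l2a is red in all 12, and Oas1a and Oas1g are red in the Batf3-/- columns and pale or blue in the WT ones.

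The transcription factors of the response fell in every primed group. Irf7, which drives interferon alpha genes and amplifies the response, stood at 280, 325 and 303 CPM in the naive libraries, and at 98.7, 87.7 and 98.1 in WT CD62L-, 76.5, 85 and 87.4 in WT CD62L+, 106, 111 and 114 in Batf3-/- CD62L- and 95, 89.6 and 64.9 in Batf3-/- CD62L+ libraries. Primed libraries did not overlap with naive ones, and the log2 fold changes were -1.67, -1.87, -1.45 and -1.86 (SE 0.13 in each; largest adjusted p = 7.41e-07). Stat2, the signal transducer of ISGF3, stood at 127, 118 and 135 CPM in naive cells, and at 56.5, 52.3 and 52.9 in WT CD62L-, 60.4, 44.9 and 44.4 in WT CD62L+, 48.2, 52.4 and 57.6 in Batf3-/- CD62L- and 49.4, 46.1 and 35 in Batf3-/- CD62L+ libraries. Its groups were again separate from naive cells, with log2 fold changes of -1.23, -1.34, -1.27 and -1.54. Irf9, the DNA-binding partner in ISGF3, fell less, from 268, 252 and 272 CPM to 181, 156 and 147 in WT CD62L-, 177, 119 and 109 in WT CD62L+, 173, 152 and 123 in Batf3-/- CD62L- and 166, 133 and 110 in Batf3-/- CD62L+ libraries. Its log2 fold changes lay between -0.71 (SE 0.19, adjusted p = 0.00989) and -0.97, and within each primed group the first library was the highest.

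Among the sensors of foreign nucleic acid, 3 of 4 fell and Ifih1 went the other way. Ddx58, which encodes the RNA sensor RIG-I, stood at 154, 149 and 154 CPM in naive cells, and at 55.3, 52.3 and 59.7 in WT CD62L-, 45.2, 48 and 44.3 in WT CD62L+, 53.7, 58.3 and 58.8 in Batf3-/- CD62L- and 49.8, 48.9 and 47.1 in Batf3-/- CD62L+ libraries. Zbp1, a sensor of Z-form nucleic acid that can trigger necroptosis, stood at 222, 224 and 210 CPM, and at 114, 121 and 102 in WT CD62L-, 94.2, 94.5 and 93.6 in WT CD62L+, 110, 113 and 110 in Batf3-/- CD62L- and 86.6, 92.1 and 85.2 in Batf3-/- CD62L+ libraries. For both genes no primed library reached the naive range. The log2 fold changes were -1.45, -1.73, -1.42 and -1.65 for Ddx58 and -0.96, -1.22, -0.97 and -1.31 for Zbp1 (SE 0.08 in each). Dhx58, whose product LGP2 modulates the RNA sensors, fell in both WT groups (-0.61 and -0.72) but did not pass in Batf3-/- groups (-0.23 and -0.40). Its call in WT CD62L- cells ended in 1 of 6 fits that left out 1 library, without the 5 libraries numbered 1 and without the 2 that stood apart (adjusted p up to 0.0861). Ifih1, the gene of the long-RNA sensor MDA5, stood at 72.6, 46.9 and 47 CPM in naive cells, and at 97.1, 68 and 95 in WT CD62L-, 79.1, 68.5 and 65.6 in WT CD62L+, 125, 93.7 and 85.5 in Batf3-/- CD62L- and 104, 89 and 83.6 in Batf3-/- CD62L+ libraries. Its log2 fold change was 0.64 in WT CD62L- (adjusted p = 0.0226), 0.87 in Batf3-/- CD62L- (0.00385) and 0.73 in Batf3-/- CD62L+ cells (0.0108), and it did not pass in WT CD62L+ cells (0.36, 0.202). Leaving out 1 library at a time ended the call in WT CD62L- cells in 4 of 6 cases (adjusted p up to 0.0971) and that in Batf3-/- CD62L+ cells in 2 of 6 (up to 0.0542), and the first naive library overlapped with several primed ones.

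The OAS family, oligoadenylate synthetases and their relatives that act against viral RNA, held both the steepest falls and a rise. The enzymes Oas1a, Oas1g, Oas2 and Oas3 are encoded within the same stretch of the minus strand of chromosome 5 (mm10, from 120730333 to 120907521), and Oasl1 and Oasl2 stand apart on the same chromosome (114896936 to 114937915). Oas2, an active synthetase, stood at 45.5, 46.4 and 70.6 CPM in naive cells, and at 1.82, 2.84 and 1.67 in WT CD62L-, 5.24, 1.31 and 4.4 in WT CD62L+, 6.33, 5.23 and 8.69 in Batf3-/- CD62L- and 3.76, 5.13 and 7.54 in Batf3-/- CD62L+ libraries. Oasl2, an OAS-like gene, stood at 77.6, 76.7 and 78.3 CPM, and at 5.04, 5.16 and 2.36 in WT CD62L-, 6.07, 4.9 and 3.09 in WT CD62L+, 12.7, 13.4 and 13.7 in Batf3-/- CD62L- and 7.69, 12.5 and 6.38 in Batf3-/- CD62L+ libraries. Oasl1, which in mice restrains translation of Irf7, stood at 32.1, 35.2 and 34.9 CPM, and at 1.93, 3.75 and 1.75 in WT CD62L-, 1.35, 3.01 and 0.979 in WT CD62L+, 4.1, 5.38 and 4.84 in Batf3-/- CD62L- and 7.98, 4.38 and 6.15 in Batf3-/- CD62L+ libraries. No primed library came near the naive range for these 3 genes. Their log2 fold changes ran from -4.67 to -3.01 for Oas2, from -4.20 to -2.55 for Oasl2 and from -4.25 to -2.47 for Oasl1, all with adjusted p of 0.000223 or less.

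Oas1a, an active synthetase, behaved differently, at 43.5, 32.9 and 37.1 CPM in naive cells, and at 32.4, 32.3 and 28 in WT CD62L-, 30.4, 33.2 and 32.8 in WT CD62L+, 61.2, 64.3 and 81.9 in Batf3-/- CD62L- and 60.7, 58 and 58.6 in Batf3-/- CD62L+ libraries. Its paralog Oas1g stood at 7.84, 5.63 and 6.9 CPM, and at 6.33, 4.91 and 3.14 in WT CD62L-, 4.92, 5.47 and 5.54 in WT CD62L+, 12.2, 12.3 and 14 in Batf3-/- CD62L- and 11.7, 9.01 and 11.8 in Batf3-/- CD62L+ libraries. All 6 Batf3-/- libraries lay above all 9 naive and WT libraries for both genes. Against naive cells Oas1a rose by 0.87 and 0.64 on the log2 scale in Batf3-/- CD62L- and CD62L+ cells and Oas1g by 0.92 and 0.67, while in WT groups Oas1a (-0.29 and -0.23) and Oas1g (-0.50 and -0.36) did not pass. The rise of Oas1g in Batf3-/- CD62L+ cells no longer passed in 4 of 6 fits that left out 1 library (adjusted p up to 0.151). Of the distinct stretches of 50 bases in Oas1a transcripts, 57.57% also occurred in those of Oas1g, and 45.25% the other way. The counting could therefore split the reads of Oas1a and Oas1g unevenly. Oas3, the largest synthetase, did not pass in any comparison with naive cells, with log2 fold changes from -0.73 to 0.09.

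The 4 IFIT genes, which encode proteins that bind viral RNA and lie within chromosome 19 (mm10, from 34550694 to 34650009, plus strand), fell in all 4 primed groups. Ifit1 stood at 188, 153 and 143 CPM in naive cells, and at 36.3, 33 and 29.6 in WT CD62L-, 35.9, 23.4 and 27.4 in WT CD62L+, 60.9, 51 and 37.5 in Batf3-/- CD62L- and 49.9, 40.2 and 32.9 in Batf3-/- CD62L+ libraries. Ifit3 stood at 153, 133 and 117 CPM, and at 18.2, 16.5 and 13.3 in WT CD62L-, 14.4, 11.4 and 8.79 in WT CD62L+, 45.7, 24.9 and 19 in Batf3-/- CD62L- and 33.4, 22.7 and 12 in Batf3-/- CD62L+ libraries. Ifit3b, its near copy, stood at 47.2, 46.5 and 37.1 CPM, and at 3.74, 4.51 and 2.86 in WT CD62L-, 2.01, 2.56 and 2.48 in WT CD62L+, 10.4, 9.57 and 4.71 in Batf3-/- CD62L- and 7.07, 6.35 and 4.94 in Batf3-/- CD62L+ libraries. Every primed library lay below every naive library for these genes, and WT libraries reached the lowest levels. Log2 fold changes ran from -2.48 to -1.69 for Ifit1, from -3.54 to -2.16 for Ifit3 and from -4.21 to -2.40 for Ifit3b. Ifit2 was nearly level across the primed groups (-2.09, -2.04, -2.17 and -2.19). Of the distinct stretches of 50 bases in Ifit3 transcripts, 51.24% also occurred in those of Ifit3b, and 44.54% the other way. The separate values of Ifit3 and Ifit3b are uncertain for that reason.

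**Figure D2:**
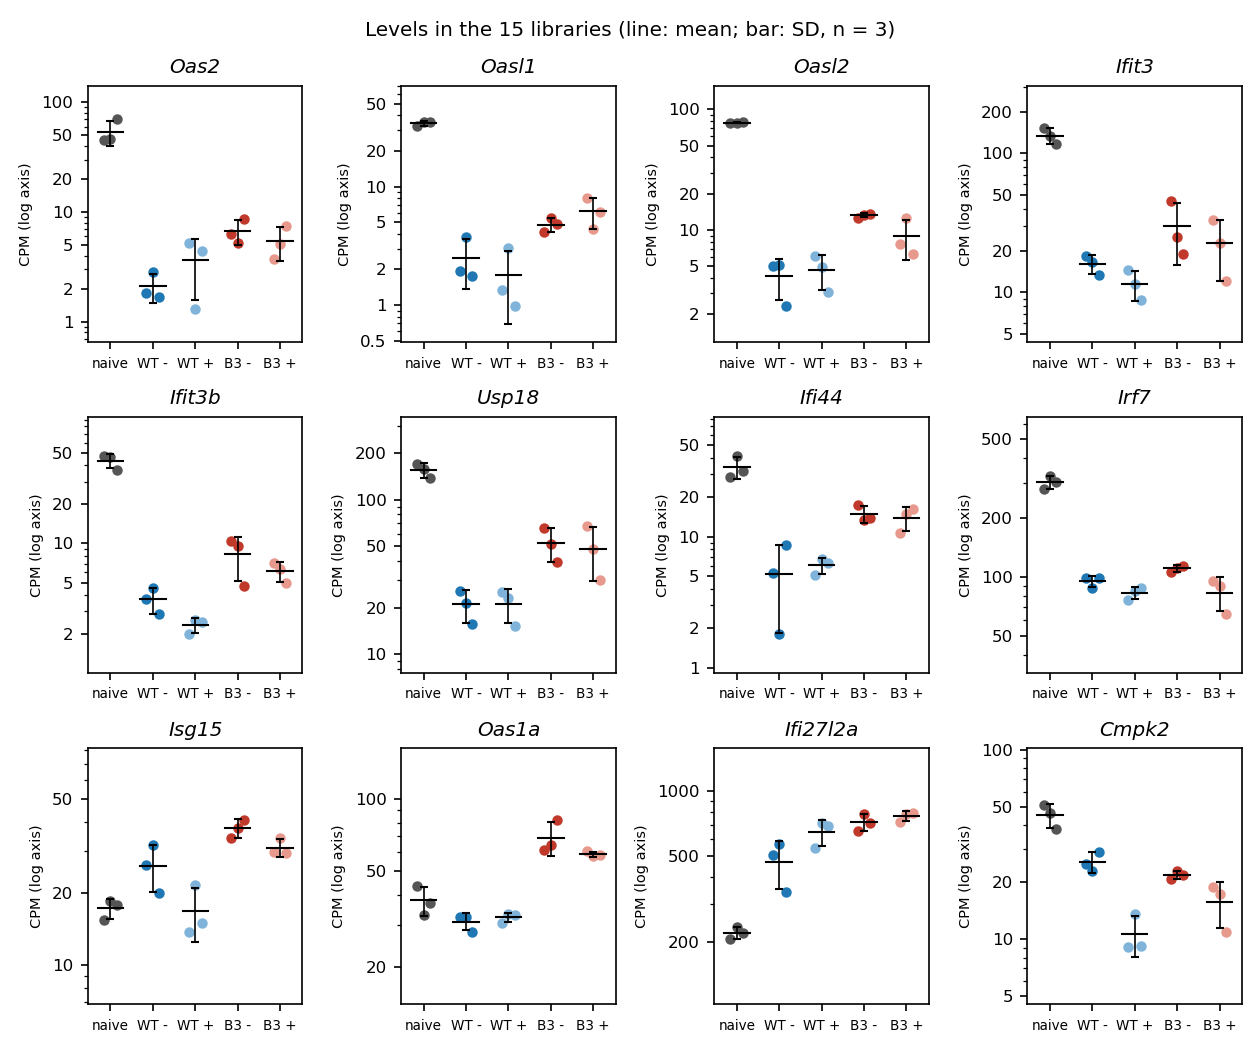
CPM on a log axis for 12 genes in the 15 libraries. Points are libraries, lines are means and bars are SD (n = 3). WT and B3 stand for WT and Batf3-/- recipients, and - and + for CD62L- and CD62L+. Oasl2 fell from 76.7 to 78.3 CPM in naive libraries to 2.36 to 13.7 CPM in primed ones, with all Batf3-/- libraries above all WT ones, and Ifi27l2a rose from 205 to 234 CPM to 339 to 797 CPM.

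The ISG15 system was split. Isg15, a ubiquitin-like protein attached to other proteins during an antiviral response, stood at 15.4, 18.6 and 17.9 CPM in naive cells, and at 26.4, 31.9 and 20 in WT CD62L-, 13.7, 21.7 and 15 in WT CD62L+, 34.1, 37.6 and 40.8 in Batf3-/- CD62L- and 29.8, 34.1 and 29.4 in Batf3-/- CD62L+ libraries. It rose in WT CD62L- (0.60, SE 0.19, adjusted p = 0.0298), Batf3-/- CD62L- (1.12) and Batf3-/- CD62L+ cells (0.85), and did not pass in WT CD62L+ cells (-0.04, adjusted p = 0.914). The call in WT CD62L- cells ended in 5 of 6 fits that left out 1 library (adjusted p up to 0.145). Usp18, which removes ISG15 from its targets and dampens signalling at the receptor, stood at 171, 158 and 137 CPM, and at 25.7, 21.5 and 15.6 in WT CD62L-, 25.2, 23.1 and 15.1 in WT CD62L+, 65.7, 51.6 and 39.7 in Batf3-/- CD62L- and 67, 47.6 and 30 in Batf3-/- CD62L+ libraries. No primed library of Usp18 reached the naive range, and its log2 fold changes were -2.89, -2.88, -1.57 and -1.69 (SE 0.28 to 0.30). Herc6, an ISG15 ligase in mice, fell in both WT groups (-0.84 and -0.75) and did not pass in Batf3-/- groups (-0.45 and -0.65), and each of its calls ended in 4 of 6 fits that left out 1 library.

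Membrane restriction factors fell together. Bst2, or tetherin, which holds budding virus at the cell surface, stood at 108, 107 and 111 CPM in naive cells, and at 25.9, 37.2 and 25.3 in WT CD62L-, 31.5, 44.1 and 35.2 in WT CD62L+, 42.1, 40.2 and 40.3 in Batf3-/- CD62L- and 43.6, 46.6 and 49.5 in Batf3-/- CD62L+ libraries. Ifitm3, which blocks virus entry from endosomes, was low throughout, at 5.94, 7.42 and 4.7 CPM in naive cells, and at 0.801, 0.614 and 0.611 in WT CD62L-, 0.554, 1.14 and 0.928 in WT CD62L+, 0.931, 0.843 and 1.16 in Batf3-/- CD62L- and 1.22, 0.232 and 0.839 in Batf3-/- CD62L+ libraries. Naive libraries were the highest for both. Log2 fold changes ran from -1.88 to -1.22 for Bst2 and from -3.15 to -2.62 for Ifitm3, and Rtp4, a receptor transporter protein with antiviral action, fell by 0.99 to 2.12.

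Rsad2 and Cmpk2 are neighbours on chromosome 12 on opposite strands and act on nucleotides, Rsad2 (viperin) by making a chain terminator of viral RNA synthesis and Cmpk2 as a mitochondrial nucleotide kinase. Rsad2 stood at 16.1, 17.5 and 13.3 CPM in naive cells, and at 9.05, 13.1 and 9.66 in WT CD62L-, 7.41, 6.74 and 5.7 in WT CD62L+, 12.9, 13 and 14.9 in Batf3-/- CD62L- and 8.46, 8.57 and 7.29 in Batf3-/- CD62L+ libraries. Cmpk2 stood at 51.1, 46.2 and 38.1 CPM, and at 25, 22.8 and 29 in WT CD62L-, 9.1, 13.6 and 9.2 in WT CD62L+, 20.8, 23 and 21.9 in Batf3-/- CD62L- and 18.9, 17.3 and 10.9 in Batf3-/- CD62L+ libraries. All primed libraries of Cmpk2 lay below the naive range, and its log2 fold changes were -0.82, -2.09, -1.04 and -1.52. Rsad2 fell in 3 groups (-0.56, -1.24 and -0.95) and did not pass in Batf3-/- CD62L- cells (-0.20, adjusted p = 0.462), and its call in WT CD62L- cells ended in 4 of 6 fits that left out 1 library (adjusted p up to 0.153). Isg20, an exonuclease, stood at 42.1, 33.9 and 39.7 CPM in naive cells, and at 62.4, 56.8 and 42.7 in WT CD62L-, 46.4, 42.1 and 43.8 in WT CD62L+, 65.6, 62.6 and 61.4 in Batf3-/- CD62L- and 64.5, 50.5 and 47.2 in Batf3-/- CD62L+ libraries. It rose in WT CD62L- (0.48), Batf3-/- CD62L- (0.71) and Batf3-/- CD62L+ cells (0.49) and did not pass in WT CD62L+ cells (0.19). Leaving out 1 library ended the Isg20 calls in 4 of 6 fits in WT CD62L- (adjusted p up to 0.1) and 3 of 6 in Batf3-/- CD62L+ cells (up to 0.0956). Samd9l, a restriction factor, and Slfn5, a member of the Schlafen family, fell in every group, by 0.78 to 1.19 and by 1.0 to 1.24. Eif2ak2, the gene of the RNA-activated kinase PKR, did not pass in any (0.05 to 0.32).

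Of the remaining genes, Ifi27l2a was the 1 gene called higher in all 4 primed groups, as 11.9% of all genes were. This interferon-induced gene stood at 205, 234 and 220 CPM in naive cells, and at 505, 567 and 339 in WT CD62L-, 546, 713 and 688 in WT CD62L+, 654, 785 and 715 in Batf3-/- CD62L- and 723, 783 and 797 in Batf3-/- CD62L+ libraries. Every primed library exceeded every naive one, with log2 fold changes of 1.10, 1.56, 1.71 and 1.81. Per kilobase of exon it was also the most abundant of the 39, with a mean of 474 CPM per kilobase in naive and 1020 to 1660 in primed groups. In naive cells Bst2 followed at 121 CPM per kilobase and Ifi35 at 82.9, and Mx1 was lowest at 1.34. Ifi44, an interferon-induced gene, stood at 28.7, 41.2 and 32.1 CPM in naive cells, and at 5.28, 1.82 and 8.61 in WT CD62L-, 5.09, 6.71 and 6.31 in WT CD62L+, 17.5, 13.5 and 13.8 in Batf3-/- CD62L- and 10.7, 14.9 and 16.4 in Batf3-/- CD62L+ libraries. Its primed libraries stayed below the naive range, with log2 fold changes of -2.71, -2.49, -1.19 and -1.28, and the calls in Batf3-/- CD62L- and CD62L+ cells ended in 4 and 3 of 6 fits that left out 1 library (adjusted p up to 0.0977). Parp9, Parp14 and Dtx3l, enzymes that modify proteins by ADP-ribose or ubiquitin, fell in all 4 groups by 0.65 to 1.28, as did Ifi35 and the apoptosis-related Xaf1. The Ifi35 call in Batf3-/- CD62L+ cells ended in 1 of 6 fits that left out 1 library (adjusted p = 0.0502). Trim30a, a ligase that restrains inflammatory signalling in mice, did not pass in any (-0.26 to -0.05).

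The MX GTPases, which trap incoming viruses, were scarce. Mx1 stood at 4.13, 4.24 and 6.3 CPM in naive cells, and at 4.86, 4.4 and 4.5 in WT CD62L-, 3.5, 3.57 and 5.27 in WT CD62L+, 4.68, 11.2 and 9.16 in Batf3-/- CD62L- and 9.34, 5.75 and 6.63 in Batf3-/- CD62L+ libraries. Each primed group overlapped the naive range, Batf3-/- CD62L+ libraries lay above all WT ones, and no comparison with naive cells passed (log2 fold changes -0.09, -0.25, 0.77 and 0.57). Mx2, annotated in GENCODE as a polymorphic pseudogene, fell in WT CD62L- cells alone of the 4 comparisons (-1.68, against -0.52, -0.38 and -0.52), and between subsets in WT recipients it did not pass (-1.15, adjusted p = 0.0628).

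**Figure D3:**
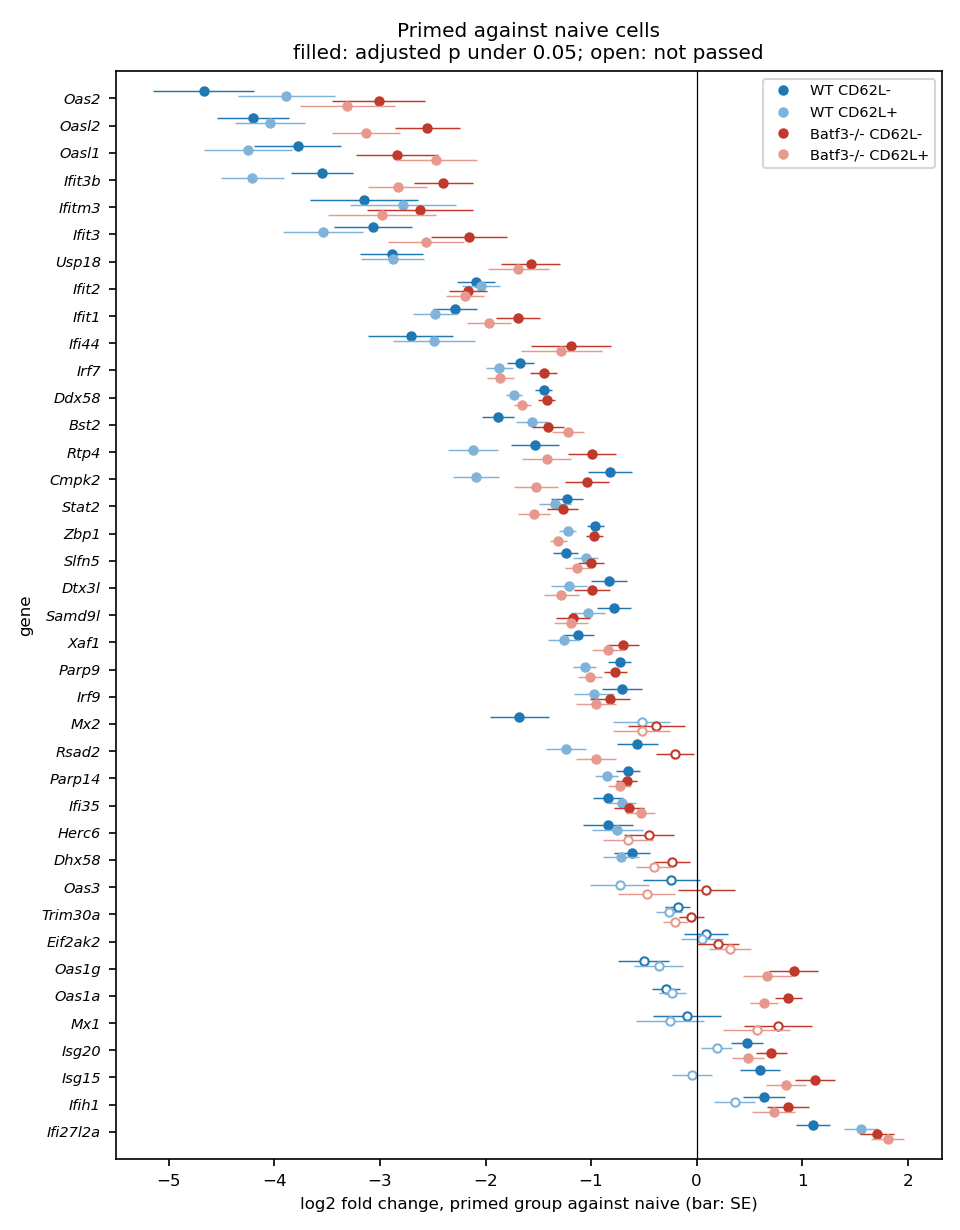
Log2 fold change of each of the 39 genes in the 4 primed groups against naive cells, with SE bars. Filled points passed at an adjusted p under 0.05. Genes run from Oas2 at the top to Ifi27l2a at the bottom, and 4 genes (Oas3, Trim30a, Eif2ak2 and Mx1) have open points only.

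Primed cells from Batf3-/- recipients held more of a subset of these transcripts than cells from WT recipients. Averaged over both CD62L subsets, 8 of the 39 genes rose (20.5%) and none fell, where 0.271% of all genes tested rose and 0.17% fell. These 8 made up 14.8% of the 54 genes called higher, and 22 of the 39 had an unadjusted p under 0.05, as 11.8% of all genes did. They were Oas1a (log2 fold change 1.02, SE 0.09, adjusted p = 0.000292), Oas1g (1.22, SE 0.17, 0.00676), Ifit3b (1.27, SE 0.19, 0.0126), Usp18 (1.25, SE 0.20, 0.0136), Oasl2 (1.28, SE 0.21, 0.0195), Isg15 (0.70, SE 0.14, 0.0418), Ifi44 (1.37, SE 0.27, 0.047) and Oasl1 (1.36, SE 0.27, 0.047). For 7 of the 8 the 6 Batf3-/- libraries lay above the 6 WT ones (17.9% of the list, against 0.451% of all genes), and for none of the 39 did they lie below (0.306% of all genes). Isg15 was the exception, with 29.4 to 40.8 CPM in Batf3-/- and 13.7 to 31.9 in WT libraries. The median over the 39 genes was 0.30, against 0 over all genes. Of the transcription factors, Irf7 (0.11, adjusted p = 0.663), Irf9 (-0.05, 0.947) and Stat2 (-0.12, 0.714) did not pass. Nor did Oas2 (1.13, 0.139), Ifit3 (0.94, 0.137), Mx1 (0.84, 0.139), Rtp4 (0.62, 0.132) or Ifit1 (0.55, 0.136), whose estimates were also positive.

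In each subset taken alone, fewer genes passed. In CD62L- cells Oas1a rose (log2 fold change 1.16, SE 0.13, adjusted p = 0.00413), the 1 call among the 39, where 0.0251% of all genes rose and 0.0251% fell, and 19 of the 39 had an unadjusted p under 0.05 (10.5% of all genes). The Oas1a call ended without the libraries numbered 1 and in a fit of the compared groups only (adjusted p up to 0.189). In CD62L+ cells edgeR called 0 of the 39, as it called 0% of all genes higher and 0.00501% lower, while 15 had an unadjusted p under 0.05 (5.78% of all genes), DESeq2 called 6 (0.712% of all genes) and limma-voom 2 (0.351%). The subsets share no library, and 27 of the 39 genes were higher in Batf3-/- recipients in both (69.2%, against 30.5% of all genes). Across the 39 genes the recipient differences of the subsets had a Pearson r of 0.71, and across all genes 0.08, as a description of genes that are not independent. No gene passed a test of the difference between the recipient effects of the subsets (0 of the 39 with edgeR, DESeq2 or limma-voom, 0% of all genes with edgeR; 2 of the 39 and 4.31% of all genes at an unadjusted p under 0.05 with edgeR).

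Calls between recipients depended on the libraries entered. Without 1 of the 12 primed libraries at a time, the average comparison called 5 to 9 of the 39 genes, and 5 in the 9 cases other than the second WT CD62L- (9), the third WT CD62L- (6) and the second WT CD62L+ library (7). Oas1a, Oas1g, Oasl2, Ifit3b and Usp18 passed in all 12 cases, and Oasl1, Isg15 and Ifi44 in 2. The largest edgeR adjusted p over the 12 was 0.00211 for Oas1a and 0.0279 for Oas1g. It came close to the threshold for Ifit3b (0.0428), Usp18 (0.0447) and Oasl2 (0.05 after rounding). Without the 5 libraries numbered 1, Oas1a alone passed. On the log2(CPM + 0.1) scale and averaged over subsets, 34 of the 39 genes were higher in Batf3-/- recipients in the libraries numbered 1 (median difference 0.39, where 49.1% of all genes were higher) and 30 in the others (median difference 0.32, where 51.7% were). Beside these results, B cell markers summed to 122 to 183 CPM in Batf3-/- CD62L- and 75.3 to 85.8 in WT CD62L- libraries, without overlap, and to 603 to 772 and 528 to 676 in the CD62L+ groups, which overlapped. Of the 16 B cell markers 1 was called higher in the recipient average. With edgeR 10 of the 16 had an unadjusted p under 0.05 (11.8% of all genes), and the median log2 fold change was 0.63. In CD62L- cells 11 of the 16 did (10.5% of all genes, median 1.05), and in CD62L+ cells 0 (5.78% of all genes, median 0.21). Markers of plasmacytoid dendritic cells, the classic interferon producers, summed to 94.2 to 112 CPM in Batf3-/- and 77.2 to 94.1 in WT libraries, of which Pacsin1 alone gave 74.7 to 92.2 and 61.7 to 78.5 CPM, with Siglech at 1.24 CPM or less and Klk1 at 0 counts. Those of dendritic cells and macrophages summed to 28.9 to 35.5 and 22.2 to 32.4 CPM, with Clec9a at 0 counts. Erythroid markers were lower in Batf3-/- recipients, at 9.87 to 36.5 CPM against 60 to 67.5 in CD62L+ libraries, without overlap, and at 33 ± 21 against 74.8 ± 27 CPM (SD, n = 3) in CD62L- libraries, which overlapped, and 0 of the 7 tested were called in the average, with 5 at an unadjusted p under 0.05. The part of these markers in the result was not tested.

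**Figure D4:**
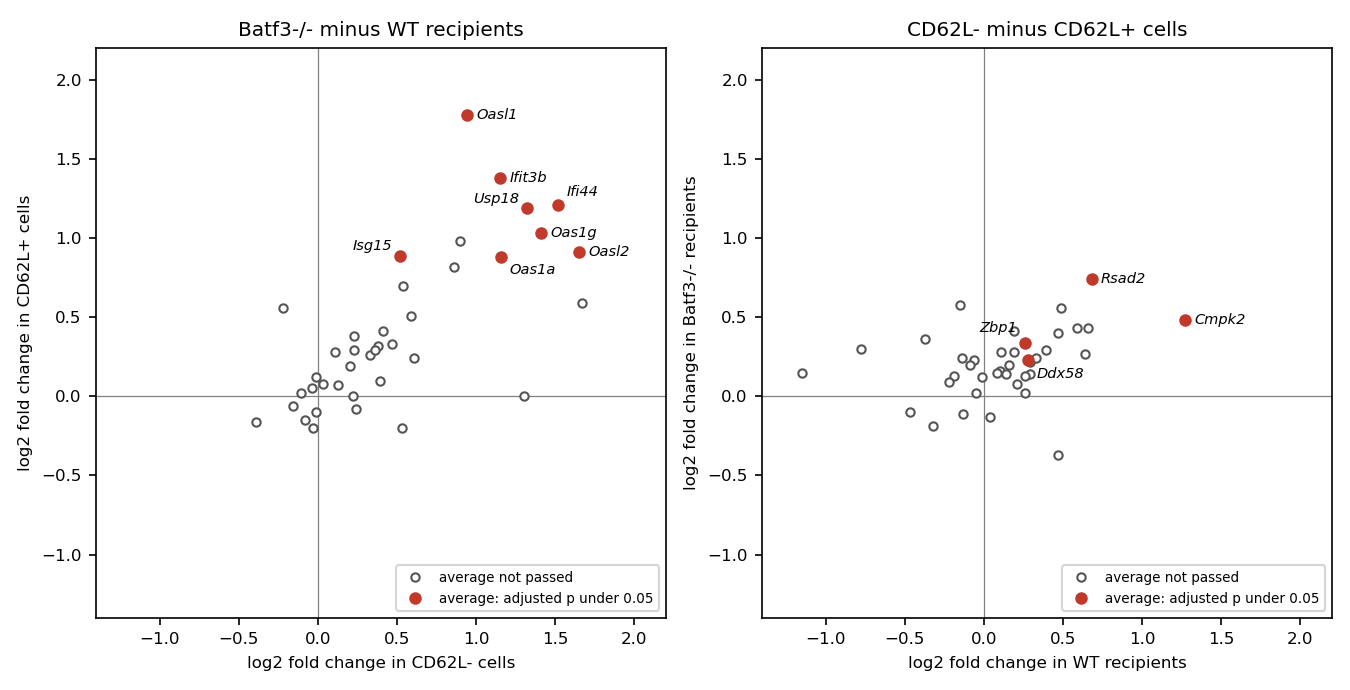
Each point is 1 of the 39 genes. Left, log2 fold change of Batf3-/- against WT recipients in CD62L- cells (horizontal) and CD62L+ cells (vertical). Right, log2 fold change of CD62L- against CD62L+ cells in WT (horizontal) and Batf3-/- recipients (vertical). Red points passed in the average of both axes, 8 genes on the left and 4 on the right, all positive on both axes.

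Between the subsets, CD62L- cells held more of 4 transcripts. Averaged over recipients, Cmpk2 (log2 fold change 0.87, SE 0.15, adjusted p = 0.00458), Rsad2 (0.71, SE 0.13, 0.00733), Zbp1 (0.30, SE 0.06, 0.00813) and Ddx58 (0.25, SE 0.06, 0.0292) were higher in CD62L- than CD62L+ cells and none of the 39 was lower, where 1.53% of all genes were higher and 1.43% lower. For these 4 genes all 6 CD62L- libraries lay above all 6 CD62L+ ones, which held for 10.3% of the list and 1.27% of all genes, and none lay wholly below (0.963% of all genes). The Ddx58 call ended in 8 of 12 fits that left out 1 library (adjusted p up to 0.0912), and the Ddx58 and Zbp1 calls ended without the libraries numbered 1. In WT recipients Cmpk2 was the 1 gene called (1.27, SE 0.21, adjusted p = 0.00765; 0.672% of all genes were higher and 0.552% lower), with 22.8 to 29 CPM in CD62L- and 9.1 to 13.6 in CD62L+ libraries. That call was lost without the third WT CD62L+ library. In Batf3-/- recipients edgeR called 0 of the 39, where 0.286% of all genes were higher and 0.216% lower, with 5 at an unadjusted p under 0.05 (8.12% of all genes), 2 called by DESeq2 (2.17% of all genes) and 1 by limma-voom (1.67%). The estimates were positive in both recipients for 23 of the 39 (59.0%, against 30.6% of all genes). B cell markers ran the other way, at 590 ± 77 and 681 ± 85 CPM in the CD62L+ groups and 79.3 ± 5.7 and 154 ± 31 in the CD62L- groups of WT and Batf3-/- recipients (SD, n = 3), and their part in the result was not tested.

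Type I interferon genes themselves were barely detected. Of 15 type I interferon genes, 13 had 0 counts in all libraries, which allows at most 0.158 CPM in the shallowest library, Ifnab had 15 counts in all, and Ifnk, the 1 gene tested, did not pass in any comparison. That limit takes 3 fragments of 2 counts each and covers counting error only, since 61% to 69.5% of the counts from 1 to 20 in each library were even, and a fragment may have added 2. The receptor gene Ifnar2 rose against naive cells in all 4 groups, with log2 fold changes of 1.0, 0.83, 0.97 and 0.74, while the partner subunit Ifnar1 was called in 1, lower in Batf3-/- CD62L- cells (-0.32). Irf1, a factor of the gamma interferon response, fell in all 4 (-0.80, -1.14, -1.17 and -1.42), as did Ifngr1, a receptor subunit for that interferon (-1.29, -1.29, -1.32 and -1.23). Jak2 and Irf8 rose in all 4. Of a list of 11 receptor, JAK kinase and IRF genes, 3 rose and 4 fell in WT CD62L-, 3 and 3 in WT CD62L+, 3 and 5 in Batf3-/- CD62L- and 3 and 4 in Batf3-/- CD62L+ cells. Of all genes 16.9%, 15.8%, 16.5% and 16.9% rose and 13.2%, 11.4%, 12.8% and 13.3% fell in these comparisons. Between recipients, on average, Ifnar1 was lower in Batf3-/- hosts (-0.29, SE 0.06, adjusted p = 0.0499) and none of the 11 was higher. That call ended without the 2 libraries that stood apart and without those numbered 1.

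Other interferon-induced gene sets were set beside the 39. The 15 guanylate-binding and immunity-related GTPases, which gamma interferon induces strongly, all fell against naive cells in all 4 groups, with medians of -1.87, -2.57, -2.22 and -2.56. Between subsets 7 of the 15 were higher in CD62L- cells on average, as 1.53% of all genes were. Among them were Tgtp2 (log2 fold change 1.27, SE 0.16, adjusted p = 0.000551) and Gbp2 (0.79, SE 0.11, 0.000813). With the replicate block 12 of the 15 were called, and the share of all genes with that block is not given here. Tgtp2 ranged from 115 to 262 CPM in CD62L- and from 57.3 to 97.8 in CD62L+ libraries. Between recipients edgeR called 0 of the 15 on average, with 2 at an unadjusted p under 0.05 and a median of -0.14. A further 45 interferon-induced genes had 24, 27, 23 and 27 lower and 4, 3, 3 and 4 higher against naive cells, beside the shares of all genes given above. Between recipients 1 of these 45 was higher on average, Ly6a, which encodes the surface protein Sca-1 (log2 fold change 0.47, SE 0.07, adjusted p = 0.0129), and the median was 0.04. The Ly6a call ended without the 2 libraries that stood apart and without those numbered 1, and DESeq2 called 4 of the 45 higher and 1 lower.

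**Figure D5:**
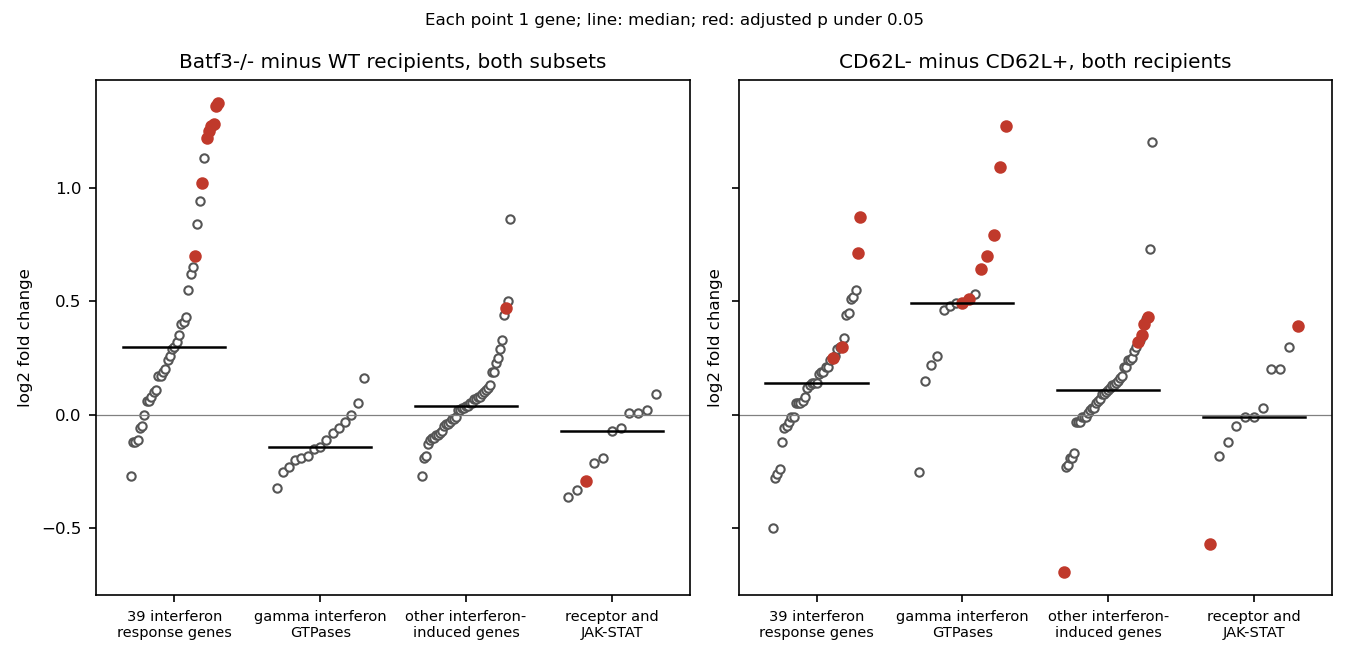
Log2 fold change of each gene in 4 lists, for Batf3-/- against WT recipients (left) and CD62L- against CD62L+ cells (right), each averaged over the other factor. The list labelled receptor and JAK-STAT holds receptor, JAK kinase and IRF genes and no STAT gene. Lines are medians and red points passed at an adjusted p under 0.05. On the left 8 of the 39 genes are red and none of the 15 GTPases, and on the right 4 of the 39 and 7 of the 15.

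The promoter match can be set beside the changes. Against naive cells the 16 genes with a match had medians of -0.90, -1.15, -0.60 and -1.04 in the 4 groups and the 13 without had -0.84, -1.26, -1.04 and -1.28. In the recipient average 4 of the 16 were called higher (median 0.31) and 3 of the 13 (median 0.20). The split is a description of these promoter windows and was not tested. Several genes overlap others in their exons, Parp9 and Dtx3l each other on opposite strands, Ifi35 with Gm11626 over 16.79% of its exons, Herc6 with Gm45193 over 13.66% and Rtp4 with Gm45338 over 13.89%. Ifi35 and Gm11626 also lie on opposite strands, and the sources used here do not give whether the counting used strand. Herc6 and Rtp4 lie on the same strand as their partners, which strand could not separate. Reads in all those stretches therefore cannot be told apart.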

How the data were processed

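The authors deposited 1 table of raw read counts per gene for all 15 libraries, with a gene length. Per the submitters' processing notes, reads were checked with FastQC, trimmed with Trimmomatic 0.36, aligned to mm10 with STAR 2.7.3a and counted with featureCounts of Subread 1.6.5; per the labels' protocols, RNA was amplified by whole-transcriptome amplification before library construction, and duplicates cannot be removed from counts. Here the deposited counts were scaled by TMM and tested with edgeR 4.0.16 (R 4.3.3), a robust quasi-likelihood fit with a term per group over all 15 libraries. The filter was filterByExpr with a minimum count of 10, which left 19942 of 49492 genes, and p-values were adjusted by Benjamini-Hochberg over all of them. Averages weight both recipients or both subsets equally. The test was tried on simulated counts with known changes. It recovered 38 of 100 planted 2-fold changes against naive cells (WT CD62L-), 28 between subsets in WT and 47 in the recipient average. Recovery at 4-fold was 60, 55 and 68 of 100, and false calls numbered 4, 0 and 10. A gene that did not pass may thus still differ. Alternatives were DESeq2 1.42.0, limma 3.58.1 with voom quality weights, RLE scaling, no filter or a stricter one, fewer libraries, a replicate block and a ribosomal RNA covariate.

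The 39 genes, the other gene lists and the markers were chosen with earlier results of these data known. Values in every library are given for 14 members fixed by name, for every member called against the majority direction or between subsets or recipients, and for the 5 with the largest mean change. Promoters are from RefSeq (GRCm38.p6) and coordinates from the deposited table's build, mm10. Some genes of the other lists are not reported here.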

Additional observations from a re-analysis of the deposited data

How the results depend on the processing

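No called log2 fold change of a named gene reversed, while 60 of the 251 values of the 39 genes that did not pass took both signs. Of 1640 values for 98 called gene results, 1532 stayed on their side of the threshold and 108 no longer passed, and 77 of the 98 kept their call under every alternative. Against naive cells the counts of called genes kept within 1.5 times of 33, 29, 31 and 32, although without the libraries numbered 1 the calls of Dhx58, Isg15, Herc6, Rsad2, Cmpk2 and Isg20 in WT CD62L-, Herc6 in WT CD62L+, Ifi44 in both Batf3-/- groups and Oas1g and Isg20 in Batf3-/- CD62L+ cells ended. Between recipients on average, 8 genes were called, and 17 with DESeq2, 5 without the 2 libraries that stood apart, 1 without the 5 libraries numbered 1 (an alternative chosen after seeing the data), 4 in a fit of the compared groups only and 5 to 9 without a library. In CD62L- cells, 1 was called, and 2 with the stricter filter, 9 with DESeq2, 3 with voom, 5 with the replicate block, 6 with the ribosomal RNA covariate, 0 without the libraries numbered 1, 0 in the compared groups only and 1 to 2 without a library. In CD62L+ cells, 0 were called, and 1 with no filter, 1 with the stricter filter, 6 with DESeq2, 2 with voom, 4 with the replicate block, 2 with the covariate and 1 without the libraries that stood apart. Between subsets in WT recipients, 1 was called, and 2 with the stricter filter, 6 with DESeq2, 2 with voom, 2 with the replicate block, 4 with the covariate, 0 without the libraries that stood apart, 0 without those numbered 1 and 0 to 1 without a library. In Batf3-/- recipients, 0 were called, and 2 with DESeq2, 1 with voom, 1 with the replicate block and 1 with the covariate. On average, 4 were called, and 8 with DESeq2, 7 with the replicate block, 7 with the covariate and 3 to 5 without a library. Fits that leave out libraries hold fewer samples, and the cause of the other differences was not tested. The share of all genes called also changed with the setting, so these counts alone show nothing particular to the 39. Between recipients in CD62L+ cells DESeq2 called 0.712% of all genes and voom 0.351%, where edgeR called 0% higher and 0.00501% lower. Between subsets in Batf3-/- recipients DESeq2 called 2.17% and voom 1.67%, where edgeR called 0.286% higher and 0.216% lower.

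The replicate numbers are not said to mark anything shared. Deviations of same-numbered libraries from their group means correlated at 0.016 to 0.111 (4 of 30 pairs over 0.1), against -0.106 to 0.03 for others, and 15 of 15 libraries correlated best with their own number, a hint from the data and not the design. With the replicate block, the recipient average called 12 genes of the list. The share of all genes called with the block is not given here, so that count alone shows nothing particular to the list. With 3 libraries a group and 15 in all, changes of low genes such as Ifitm3, at 0.232 to 7.42 CPM, rest on few reads.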
